A study of Homo sapiens with 12 samples.

Results

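The genes described here are 8 components and regulators of the complement system, C1R, C1S, C3, CFB, CFI, CD46, CD55 and CD59. They were taken by symbol from the 39368 genes in the count table of each cell line, and all 8 were found in both tables. CAL27 and HSC3 are HPV-negative lines derived from head and neck squamous cell carcinoma (HNSCC), and both carried tet-MUC1shRNA, a vector from which an shRNA against MUC1 is made when doxycycline (DOX) is present. Cells of each line received either DOX at 500 ng/mL or the vehicle, DMSO at 0.1%, over 7 days, and 3 RNA-seq libraries were made in each of the 4 groups. Cells were selected in puromycin, and CAL27 cells were grown in DMEM and HSC3 cells in MEM. No DOX-treated library with the control shRNA was analysed here, so silencing of MUC1 and any other action of DOX or the vector cannot be told apart.

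Complement is a set of plasma and membrane proteins that marks cells and microbes for removal and can lyse them. In the classical pathway the serine proteases C1r and C1s, bound to C1q, cleave C4 and C2, and in the alternative pathway factor B (CFB) joins activated C3 to form a convertase that cleaves more C3. Host cells limit these steps with factor I (CFI), a soluble protease that inactivates C3b and C4b, with CD46, its membrane cofactor, with CD55, which speeds the decay of convertases, and with CD59, which blocks the membrane attack complex. Most plasma complement comes from the liver, but epithelial cells also make C3, factor B, C1r and C1s, and carcinoma cells commonly carry the 3 membrane regulators. Transcription of CFB and C3 is known to respond to interferons and inflammatory cytokines.

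Levels are given as CPM, the usual scaling of counts to library size, with TMM normalization over the 12 libraries, and SE is the standard error of a log2 value. DOX was compared with vehicle within each line by edgeR's two-sided quasi-likelihood test, with p-values adjusted over all genes tested (Benjamini-Hochberg), and a gene is said to rise or fall when its adjusted p was under 0.05. Totals ran from 92866845 to 126328662 counts in CAL27 and from 89730914 to 169065103 in HSC3 libraries. Each molecule appears to have given several counts, estimated at 2.45 to 3.33 in CAL27 libraries, 4.18 to 7.43 in HSC3 vehicle libraries and 8.93 to 17.2 in HSC3 DOX libraries, so low counts stand for fewer molecules than their number. The highest estimate was that of HSC3 DOX replicate 1, which also had the largest total and the fewest genes detected (19128). MUC1 itself, the target of the shRNA, stood at 55.3 ± 2.79 CPM (SD, n = 3) in CAL27 vehicle and 2.98 ± 0.249 in CAL27 DOX libraries (edgeR adjusted p = 1.6e-19). It stood at 1.76 ± 0.186 in HSC3 vehicle and 0.237 ± 0.0928 in HSC3 DOX libraries (edgeR adjusted p = 2.0e-04). The HSC3 DOX level rests on counts of 16 to 46 per library, and so on few molecules. All 6 markers of squamous epithelium were present in every group, at a summed level of 5650 to 5922 CPM with vehicle and 2476 to 2621 with DOX in CAL27 and of 5324 to 5940 and 2229 to 2584 in HSC3 cells, and the part of this shift in the results below was not tested. The 3 hepatocyte markers summed to at most 0.0191 CPM in any library, and the haematopoietic, fibroblast and endothelial lists summed to at most 5.28, 14.1 and 15.3 CPM, each highest in CAL27 vehicle libraries.

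The stretch of DNA before the RefSeq start site of CFB is shown first, because CFB had the largest fall among the 8 genes in CAL27 cells and its promoter is the only one of the member promoters in the table with both interferon-linked motifs that were searched. RefSeq promoter windows on GRCh38.p14, from 250 bases before to 50 bases after a start site, were matched for 6 of the 8 members, and C1S and C3 had no entry. Matches were sought on both strands for an ISRE-like motif, GAAA and GAAA with any 2 bases between them, the form bound by interferon-activated STAT and IRF complexes, and for a GAS-like motif, TTC and GAA with any 3 bases between them, the form bound by STAT dimers. An ISRE-like match was held by 3.57% of all 35116 promoter windows in the table and a GAS-like match by 7.66%. The 250 bases upstream of that start site (chr6:31945845-31946094, plus strand) lie inside the GENCODE span of CFB, which has transcripts that begin earlier, from 31945650 on. They are printed 5′ to 3′ with the ISRE-like match, which begins 140 bases before the start site, and the GAS-like match, which begins 92 bases before it, in capitals.
CFB: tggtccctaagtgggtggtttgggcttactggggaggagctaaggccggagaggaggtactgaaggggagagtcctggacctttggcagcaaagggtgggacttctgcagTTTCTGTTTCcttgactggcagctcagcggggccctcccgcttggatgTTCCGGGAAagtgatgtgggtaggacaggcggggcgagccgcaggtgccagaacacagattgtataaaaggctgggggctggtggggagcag
The GAS-like matches of the other members are shown with 10 bases on each side for comparison with that of CFB. They lie upstream of 1 of 2 RefSeq start sites of C1R and inside its GENCODE span (chr12:7091961-7091989, minus strand), and upstream of a CD59 start site (chr11:33736589-33736617, minus strand).
C1R: gccagtcctaTTCCTGGAAggggagggga
CD59: ccacccggccTTCTCAGAAcctgggccag
A kappaB-like motif, GGG and CC with any 5 bases between them, was held by 58.7% of all windows. It was held by those of C1R, CFB, CD46 and CD55 and by some, not all, of those of CD59. The windows of CFI held none of the 3 motifs. These matches describe letters only, and no binding was measured in these data. CFB was chosen for display by its fall and its matches, and any link between matches and DOX response was not tested.

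DOX changed all 8 genes in CAL27 cells, though the calls of CFI and CD59 were lost in some other fits, given below. The 4 activating components and factor I fell, with C1R, C1S, C3, CFB and CFI all over 2-fold lower, CD46 fell by less, CD55 rose over 2-fold and CD59 rose slightly. At an adjusted p under 0.05, 6 members were lower and 2 higher, against 21.8% and 22.6% of the 19239 genes tested. With the further limit of a 2-fold change, 5 members were lower and 1 higher, against 5.11% and 1.31% of genes. The median log2 fold change of the members was -1.14, and that of all genes tested was -0.0052. In HSC3 cells, 7 members passed the filter on low counts, and 3 fell and 2 rose, against 15.4% and 13.0% of 18021 genes. C1R and C1S were over 2-fold lower there, against 4.40% of genes, and no member was over 2-fold higher, against 1.58%. The 5 that passed the test in HSC3 cells, C1R, C1S, CD46, CD55 and CD59, had the same direction as in CAL27 cells, whereas C3 and CFB did not pass it. In RNA from whole cultures, fewer cells that express a gene and less RNA per cell cannot be told apart, and the p-values measure the spread between triplicate cultures.

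**Figure D1:**
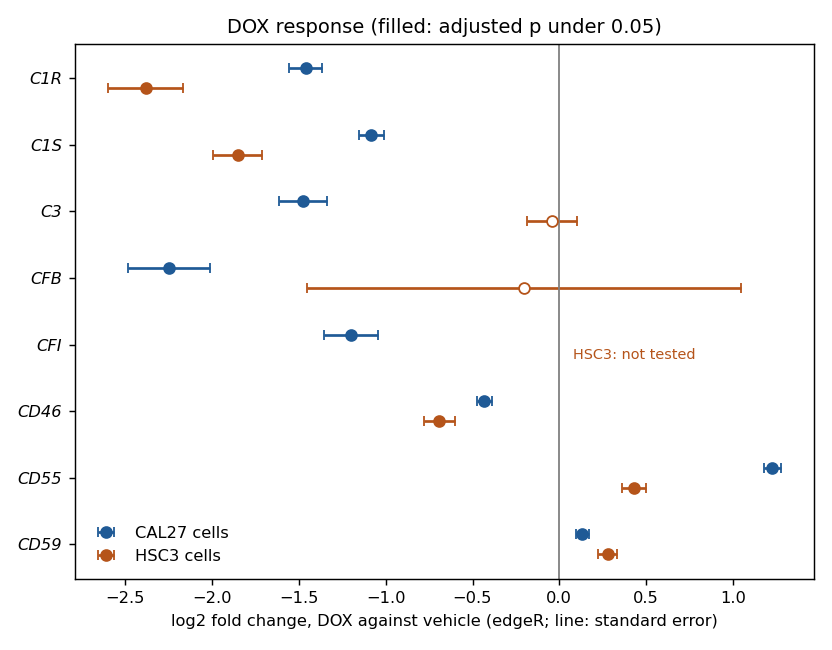
Log2 fold change with DOX of each complement gene in CAL27 (blue) and HSC3 (orange) cells, with lines for the standard error and filled points for an adjusted p under 0.05 by edgeR. C1R and C1S lie to the left and CD55 and CD59 to the right of 0 in both lines, C3 lies at -1.48 in CAL27 and -0.04 in HSC3 cells, and CFI was not tested in HSC3 cells.

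C1R and C1S encode the paired proteases of the C1 complex and lie near each other on chromosome 12, C1R from 7080214 to 7092540 on the minus strand and C1S from 6988259 to 7071032 on the plus strand of GRCh38 (GENCODE v44). C1R had 17.9, 19.3 and 19.9 CPM in the CAL27 vehicle libraries and 7.97, 7.17 and 5.71 in the CAL27 DOX libraries. Its HSC3 levels were 6.09, 5.95 and 8.46 CPM in vehicle libraries against 1.14, 1.60 and 1.21 in DOX libraries. The groups overlapped in neither line, and the DOX-treated CAL27 libraries were at about the level of vehicle-treated HSC3 libraries. On the log2 scale C1R changed by -1.46 (edgeR adjusted p = 3.8e-09, SE 0.096) in the CAL27 line and by -2.38 (edgeR adjusted p = 1.5e-05, SE 0.22) in the HSC3 line. C1S had 25.4, 26.8 and 28.3 CPM in CAL27 vehicle libraries against 14.3, 12.3 and 11.4 in CAL27 DOX libraries. HSC3 levels of C1S were 11.8, 10.7 and 10.03 CPM in vehicle libraries against 2.696, 3.28 and 3.06 in DOX libraries. Again each DOX library was below each vehicle library of its line. C1S changed by -1.08 on the log2 scale (edgeR adjusted p = 5.4e-10, SE 0.072) in the CAL27 line and by -1.85 (edgeR adjusted p = 4.5e-06, SE 0.14) in the HSC3 line. In the annotation, 11.6% of the exon bases of C1R lie under C1RL on the same strand, and 2.76% of those of C1S lie under another gene, where reads could have been left uncounted or shared.

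The falls of C1R and C1S were larger in HSC3 than in CAL27 cells. The difference between the lines, tested as a line-by-DOX interaction in 1 edgeR fit of the 12 libraries, was -0.93 on the log2 scale for C1R (edgeR adjusted p = 0.0096, SE 0.23) and -0.77 for C1S (edgeR adjusted p = 0.0017, SE 0.15). Across members this test was passed by 3 with a lower and 1 with a higher value in HSC3 cells, against 12.3% and 8.25% of 20694 genes. The balance of C1R to C1S was compared within each library. The ratio of C1R to C1S, each as CPM per kb of merged exons, does not depend on library scaling. Among CAL27 libraries the ratio was 1.01, 1.03 and 1.01 for vehicle against 0.797, 0.831 and 0.713 for DOX. Among HSC3 libraries the ratio was 0.735, 0.798 and 1.205 for vehicle against 0.604, 0.695 and 0.564 for DOX. The DOX libraries were lower in both lines without overlap, with p = 0.1 in each line by an exact two-sided permutation test, the smallest that 3 libraries against 3 can give. The HSC3 difference in log2 ratio, -0.53, was -0.31 without HSC3 vehicle replicate 3, the library with the high ratio.

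C3, on chromosome 19 from 6677704 to 6730562 (minus strand), encodes the central protein on which all complement pathways converge. Its levels in CAL27 cells were 399.0, 421 and 427 CPM for vehicle against 178, 144 and 127 for DOX. HSC3 cells had far less, at 9.25, 9.12 and 8.84 CPM for vehicle against 7.51, 8.41 and 10.6 for DOX. The CAL27 groups were well apart, while the HSC3 DOX libraries spread on both sides of the vehicle libraries. C3 fell in CAL27 cells, by a log2 value of -1.48 (edgeR adjusted p = 6.8e-04, SE 0.14). The HSC3 value was -0.04 (edgeR adjusted p = 0.88), with a 95% interval from -0.36 to 0.28 that leaves out a fall of the CAL27 size. The interaction was 1.43 (edgeR adjusted p = 2.3e-05, SE 0.17), a smaller fall in HSC3 cells. Even after DOX the CAL27 libraries held many times more C3 RNA than any HSC3 library. In the annotation, 11.7% of the exon bases of C3 lie under a long non-coding RNA gene on the same strand.

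CFB, on chromosome 6 from 31945650 to 31952086 (plus strand), encodes the protease subunit of the alternative pathway convertase. It was weakly expressed, with 1.44, 1.20 and 1.32 CPM in CAL27 vehicle libraries, and it fell to 0.363, 0.213 and 0.256 with DOX. This was the largest fall among the members in the CAL27 line, at a log2 value of -2.25 (edgeR adjusted p = 1.4e-07, SE 0.24), on counts of 130 to 198 with vehicle and 22 to 38 with DOX. HSC3 libraries held 26, 5 and 20 counts of CFB under vehicle against 25, 0 and 28 under DOX. Those groups overlapped, and the log2 fold change of -0.20 had a 95% interval from -2.97 to 2.56 (edgeR adjusted p = 0.93), and this depth could not show a difference. The interaction of 2.03 (edgeR adjusted p = 0.21, SE 1.05) did not pass the test. Without HSC3 DOX replicate 2, the library with no CFB count, it was 2.61 (edgeR adjusted p = 0.0081). It did not pass in the other 16 of 17 alternatives, where the lowest value was 1.40. The ratio of CFB to C3 in CPM per kb was lower in all CAL27 DOX libraries, at 0.00784, 0.00622 and 0.00673 for vehicle against 0.00444, 0.00322 and 0.00441 for DOX (exact permutation p = 0.1, the smallest possible). A readthrough gene on the same strand covers 42.3% of the exon bases of CFB, so its counts are uncertain.

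CFI, on chromosome 4 from 109731008 to 109802150 (minus strand), encodes the soluble protease that needs a cofactor such as CD46. CAL27 levels of CFI in CPM were 2.27, 2.603 and 2.28 for vehicle against 1.12, 0.912 and 1.08 for DOX. The groups did not overlap, and CFI fell by a log2 value of -1.20 (edgeR adjusted p = 2.0e-06, SE 0.15). With the spread taken from 1 fit over all 12 libraries, the edgeR adjusted p of this fall was 0.077. In HSC3 cells the only CFI counts were 6 in DOX replicate 3, and the other 5 libraries had none. No fold change with DOX is given there. Against a floor of 3 molecules per library, each at its estimated number of counts, CFI was at least 13.9-fold higher in vehicle-treated CAL27 than in vehicle-treated HSC3 cells. This floor was chosen after the data were seen, and the bound covers counting error only. The ratio of CFB to CFI in CPM per kb was lower in all CAL27 DOX libraries, at 0.633, 0.462 and 0.581 for vehicle against 0.325, 0.234 and 0.238 for DOX (exact permutation p = 0.1, the smallest possible). A second protein-coding gene on the same strand covers 29.4% of the exon bases of CFI.

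**Figure D2:**
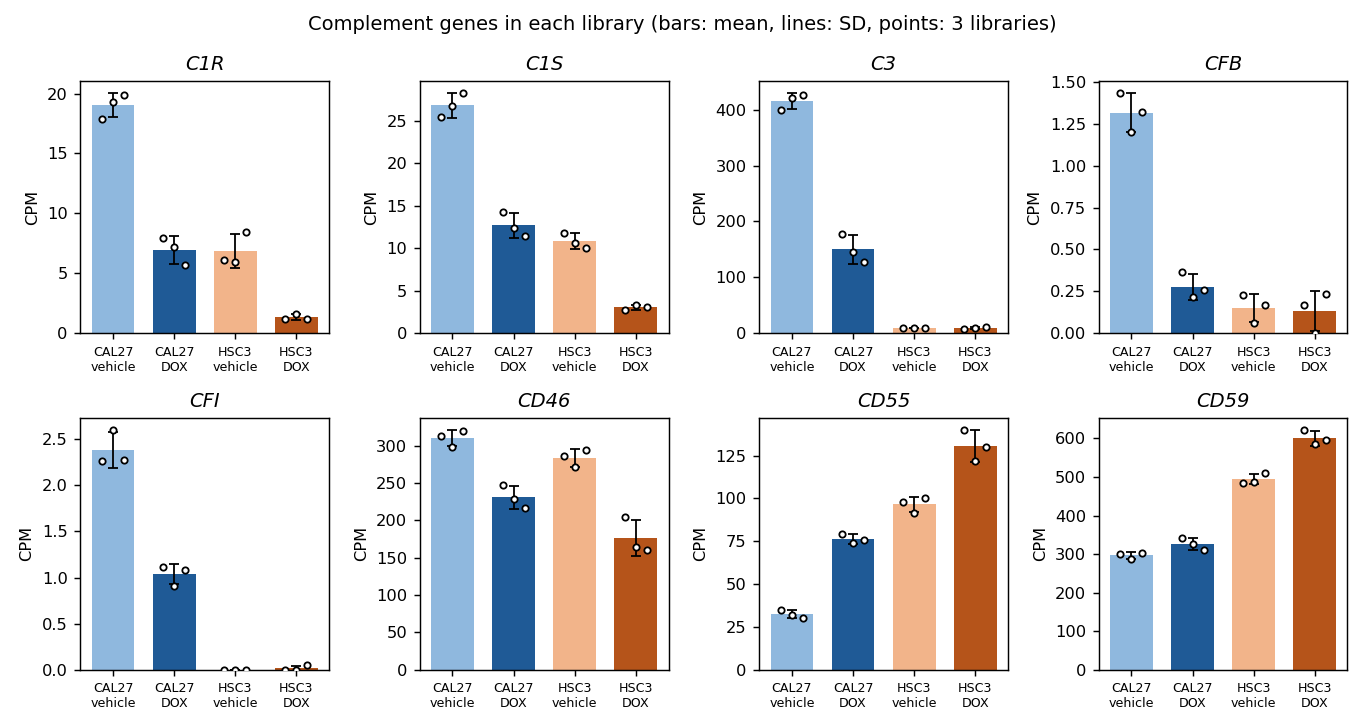
CPM of each complement gene in the 3 libraries of each group (open points), with bars for the mean and lines for the SD, each panel on its own linear axis. The 4 activating components and CFI are highest in CAL27 vehicle libraries, and CD55 and CD59 are highest in HSC3 DOX libraries.

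The membrane regulators did not move together. CD46 lies on chromosome 1 from 207752037 to 207795513 and CD55 on the same chromosome from 207321519 to 207386804, both on the plus strand. CD46, the cofactor for cleavage of C3b and C4b, had 313, 299.0 and 320 CPM in CAL27 vehicle against 247, 229 and 217 in CAL27 DOX libraries. The HSC3 values of CD46 were 286, 271 and 294 CPM for vehicle against 205, 164 and 161 for DOX. Every DOX library was below every vehicle library of its line. CD46 changed by -0.43 on the log2 scale (edgeR adjusted p = 9.3e-08, SE 0.044) in the CAL27 line and by -0.69 (edgeR adjusted p = 1.8e-04, SE 0.088) in the HSC3 line. The interaction of -0.26 (edgeR adjusted p = 0.13) did not pass the test, and it was -0.36 (edgeR adjusted p = 6.0e-04) without HSC3 DOX replicate 1. It did not pass in the other 16 of 17 alternatives. An antisense non-coding RNA gene covers 5.14% of the exon bases of CD46.

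CD55, the decay-accelerating factor, rose in both lines. CAL27 libraries had 35.0, 32.1 and 30.4 CPM of it under vehicle against 79.3, 73.9 and 75.7 under DOX. HSC3 libraries had 97.9, 91.7 and 100.01 CPM under vehicle against 140.1, 122 and 130.1 under DOX. The groups did not overlap in either line, and the CAL27 libraries stayed below the HSC3 vehicle libraries even after their rise. CD55 changed by 1.23 on the log2 scale (edgeR adjusted p = 9.9e-14, SE 0.049) in the CAL27 line and by 0.43 (edgeR adjusted p = 9.2e-04, SE 0.070) in the HSC3 line. The rise was smaller in HSC3 cells, with an interaction of -0.79 (edgeR adjusted p = 2.4e-05, SE 0.093).

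CD59, on chromosome 11 from 33703010 to 33736479 (minus strand), encodes the inhibitor of the membrane attack complex. It had 301, 287 and 303 CPM in CAL27 vehicle against 341, 327 and 312 in CAL27 DOX libraries. HSC3 levels of CD59 were 486, 487 and 509 CPM for vehicle against 623, 585 and 595 for DOX. The DOX libraries were the higher ones in both lines, though in CAL27 cells by a margin close to the spread of the libraries. CD59 changed by 0.13 on the log2 scale (edgeR adjusted p = 0.0095, SE 0.040) in the CAL27 line and by 0.28 (edgeR adjusted p = 0.0032, SE 0.056) in the HSC3 line. In CAL27 cells the adjusted p rose to 0.11 without vehicle replicate 2, to 0.060 without the DOX library in column 4 and to 0.054 in 1 fit over all 12 libraries. The interaction was 0.15 (edgeR adjusted p = 0.16). Another protein-coding gene covers 5.96% of the exon bases of CD59 on the same strand.

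Between the lines without DOX, HSC3 cells had less of the complement components and more of CD55 and CD59. C1R, C1S, C3, CFB and CFI were lower and CD55 and CD59 higher in HSC3 than in CAL27 vehicle libraries at an adjusted p under 0.05, against 32.3% and 30.6% of 20694 genes. Of these, the 5 lower genes and CD55 differed by over 2-fold, against 18.7% of genes lower and 13.2% higher. The count of members higher in HSC3 cells was thus not above the share of all genes at either limit. C3 differed most of the genes with counts in both lines, at 416 ± 14.7 CPM (SD, n = 3) in CAL27 and 9.07 ± 0.211 (SD, n = 3) in HSC3 cells, a log2 difference of -5.52 (edgeR adjusted p = 3.3e-14, SE 0.14). The log2 difference was -1.48 for C1R, -1.31 for C1S and -3.09 for CFB (edgeR adjusted p = 6.9e-07, 2.1e-08 and 0.0023). CD55 was higher in HSC3 cells by 1.57 and CD59 by 0.73 (edgeR adjusted p = 1.4e-11 and 2.4e-09). CD46 had a difference of -0.13 (edgeR adjusted p = 0.17) with a 95% interval from -0.30 to 0.04. Its adjusted p was 0.015 with the 6 vehicle libraries alone, and when TMM was replaced by library totals the difference was -0.40 (edgeR adjusted p = 1.6e-04). That scaling moved the median difference of all genes from -0.12 to -0.39. Line, medium and handling cannot be told apart in this comparison.

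The order of the levels, taken per kb of merged exons, also differed. In vehicle-treated CAL27 cells C3 was first at 35.9 CPM per kb, followed by CD59 at 28.1 and CD46 at 20.04, with no overlap between neighbours. C1R at 3.28, C1S at 3.23 and CD55 at 3.17 came next, and these neighbours overlapped. CFI at 0.448 and CFB at 0.248 were last and did not overlap. With DOX, CD59 at 30.9 came first in CAL27 cells, CD46 at 14.9 and C3 at 12.9 overlapped, and CD55 at 7.44 had passed C1S at 1.53 and C1R at 1.20. In vehicle-treated HSC3 cells the order was CD59 at 46.8, CD46 at 18.3, CD55 at 9.42, then C1S at 1.31 and C1R at 1.18, which overlapped, then C3 at 0.783, CFB at 0.0285 and CFI at 0. With DOX, CD55 at 12.7 and CD46 at 11.4 overlapped below CD59 at 56.9, and C3 at 0.764 stood above C1S at 0.363 and C1R at 0.226. Merged exons join all annotated transcripts of a gene, and the transcripts in these cells may be shorter.

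**Figure D3:**
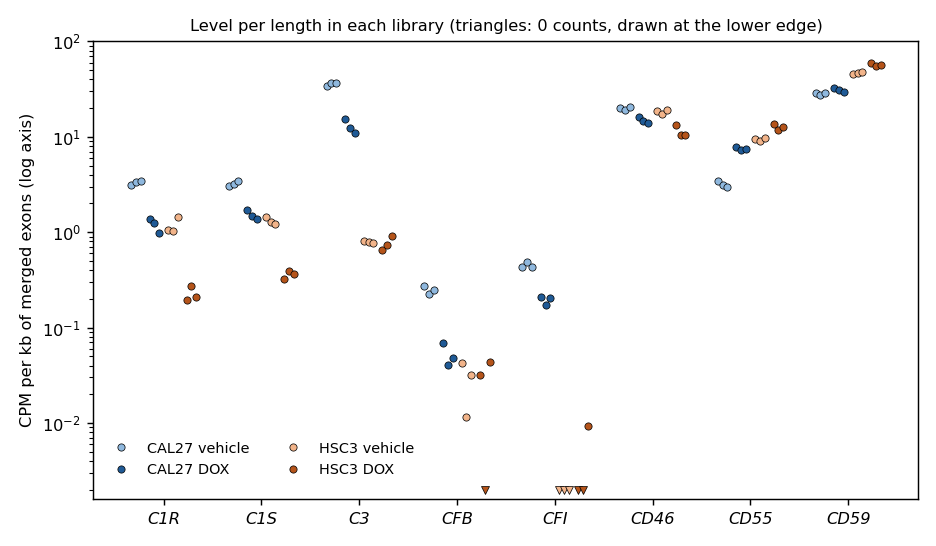
CPM per kb of merged exons (log axis) of the complement genes in each library, with triangles at the lower edge for libraries with 0 counts. C3 spans from 36.9 in a CAL27 vehicle library to 0.649 in an HSC3 DOX library, and the 3 membrane regulators stay between 2.97 and 59.0.

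The levels of C1R, C1S, C3 and CFB were also summed per kb and divided by the sum for CD46, CD55 and CD59 in the same library. This ratio was 0.784, 0.869 and 0.841 in CAL27 vehicle against 0.332, 0.288 and 0.262 in CAL27 DOX libraries. The HSC3 ratios were 0.0448, 0.0428 and 0.0450 for vehicle against 0.0140, 0.0179 and 0.0194 for DOX. The component sum was thus below the regulator sum in every library, and the DOX libraries were lower than the vehicle libraries of the same line without overlap. The log2 ratio changed by -1.51 in CAL27 and by -1.38 in HSC3 cells, each with an exact permutation p = 0.1, the smallest possible. C3 made up most of the component sum in CAL27 cells. In HSC3 cells C1R and C1S made up most of it under vehicle, and their levels per kb were lower with DOX (1.18 against 0.226 and 1.31 against 0.363), while that of C3 was 0.783 under vehicle and 0.764 under DOX.

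**Figure D4:**
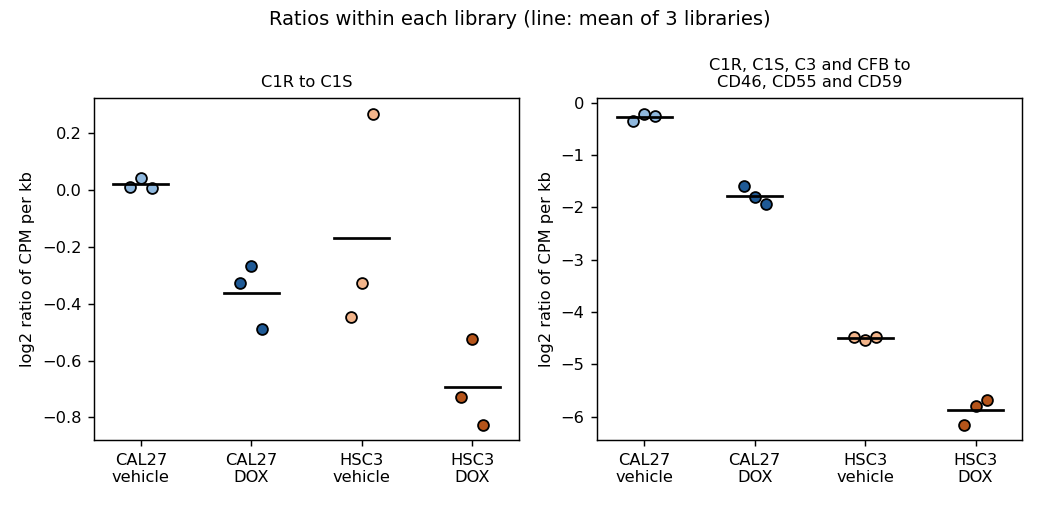
Log2 ratios of CPM per kb within each library, for C1R to C1S (left) and for the sum of 4 components to the sum of 3 membrane regulators (right), with a line at the mean of 3 libraries. DOX libraries lie below the vehicle libraries of their line in both panels, and 1 HSC3 vehicle library stands above the others in the left panel at 0.27.

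Other complement genes were taken from a list of 53, of which 28 could be tested in CAL27 and 26 in HSC3 cells. In CAL27 cells 13 fell and 4 rose, with a median log2 fold change of -0.33 over those tested, and in HSC3 cells 4 fell and 2 rose, with a median of 0.02. Of all genes tested, 21.8% fell and 22.6% rose in CAL27 cells and 15.4% fell and 13.0% rose in HSC3 cells, so the HSC3 counts of this list were not above the share of all genes, nor was the count that rose in CAL27 cells. By role, the genes that fell in CAL27 cells were 4 of 8 tested for the classical and lectin pathways, 0 of 2 for the alternative pathway, 1 of 3 terminal components, 3 of 6 soluble regulators, 2 of 2 membrane regulators and 3 of 7 receptors, each too few to be read against the 21.8% of all genes that fell. The 4 that rose, CR2, ITGB2, C1QBP and CALR, were all listed under receptors, the class in which the other 3 of 7 fell. C1QA, C1QB and C1QC, which encode the C1q subunit that C1r and C1s bind, were too low to be tested in either line. C4A and C4B, near-identical copies that encode a C1s substrate and between which reads can be split, were called lower in CAL27 cells at under 1 CPM.

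SERPING1 encodes C1 inhibitor, which inactivates C1r and C1s, and it fell in both lines. CAL27 levels of SERPING1 were 7.56, 7.48 and 7.06 CPM for vehicle against 2.22, 1.32 and 1.51 for DOX, a log2 change of -2.14 (edgeR adjusted p = 8.9e-10, SE 0.14). HSC3 libraries held 198, 100 and 148 counts of it under vehicle against 0, 30 and 10 under DOX, a log2 change of -3.77 (edgeR adjusted p = 0.0064, SE 0.85), whose size rests on few molecules. Without DOX replicate 1 it was -3.17 and without DOX replicate 2 it was -5.12. The inhibitor of C1r and C1s was thus lower in the same libraries as its targets. C5, the precursor of the anaphylatoxin C5a and of the first membrane attack protein, had 8.31, 7.79 and 7.71 CPM in CAL27 vehicle against 5.17, 5.17 and 5.30 in CAL27 DOX libraries and fell by 0.61 on the log2 scale (edgeR adjusted p = 3.8e-06). HSC3 levels of C5 were 4.603, 3.84 and 5.14 CPM for vehicle against 1.53, 1.20 and 1.28 for DOX, a log2 change of -1.76 (edgeR adjusted p = 7.5e-05, SE 0.20).

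CLU encodes clusterin, a chaperone that also restrains the terminal complex. Its mean was 49.0 ± 1.96 CPM (SD, n = 3) in CAL27 vehicle and 40.4 ± 2.28 in CAL27 DOX libraries, and 30.7 ± 0.697 in HSC3 vehicle and 13.5 ± 1.40 in HSC3 DOX libraries. These are log2 changes of -0.28 (edgeR adjusted p = 6.9e-05) and -1.19 (edgeR adjusted p = 1.0e-05). SUSD4, which encodes a membrane protein that inhibits complement, had 14.4, 13.6 and 14.8 CPM in CAL27 vehicle against 4.88, 4.36 and 4.22 in CAL27 DOX libraries, a log2 change of -1.67 (edgeR adjusted p = 1.2e-12, SE 0.079). HSC3 levels of SUSD4 were 3.02, 2.75 and 2.36 CPM for vehicle against 1.25, 2.59 and 2.61 for DOX, groups that overlapped, with a log2 change of -0.34 (edgeR adjusted p = 0.45).

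**Figure D5:**
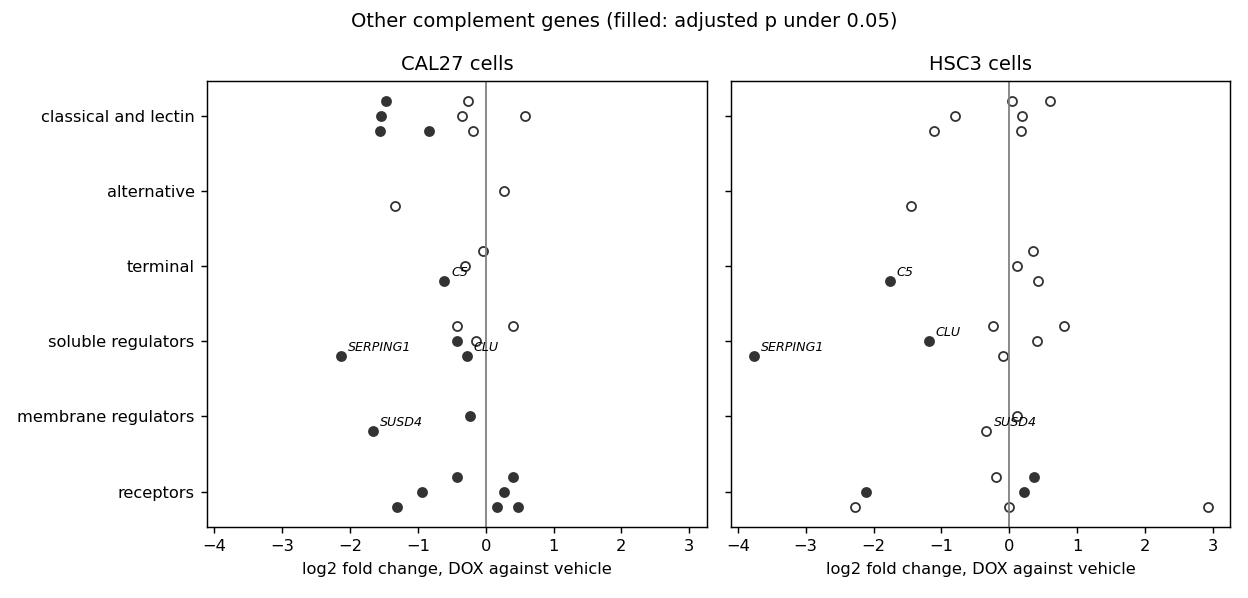
Log2 fold change with DOX of the other complement genes that could be tested, by role, in CAL27 (left) and HSC3 (right) cells, with filled points for an edgeR adjusted p under 0.05. SERPING1 lies at -2.14 and -3.77, C5 at -0.61 and -1.76, CLU at -0.28 and -1.19 and SUSD4 at -1.67 and -0.34.

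Among the genes whose log2 CPM over the 12 libraries lay nearest to that of C3, after centring each gene and among 9257 others whose log2 CPM averaged at least 3, were SLPI and APOL1. Their root mean square differences from C3 were 0.284 and 0.377 on the log2 scale. SLPI averaged 78.8 CPM with vehicle and 37.6 with DOX in the CAL27 line and 2.46 and 1.87 in the HSC3 line. APOL1 averaged 176 and 84.5 CPM in CAL27 and 6.51 and 7.22 in HSC3 cells. Both were far lower in HSC3 than in CAL27 libraries, as C3 was, with log2 differences between vehicle groups of -5.01 and -4.76. Both genes were picked by nearness to C3 over the same libraries, so this likeness follows from the choice and is no separate result.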

How the data were processed

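RNA was made into TruSeq Stranded mRNA libraries and reads were aligned to GRCh38 with STAR, and the submitters' processing notes list STAR 2.7.9a, Subread 2.0.1 and featureCounts. The study's methods add a release suffix to the genome name without saying what it refers to. The gene annotation by name, the strand setting and the treatment of duplicated reads are not given in the sources used here. The authors deposited raw counts per gene symbol, 1 table for each cell line, with no normalization. In the CAL27 table the DOX columns are numbered 4 to 6, so they were assigned to their group without a replicate number. The separate cultures of a group are called triplicates in the study's methods.

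Counts were analysed in R 4.3.3 with edgeR 4.0.16 (filterByExpr at min.count 10 and min.total.count 15, TMM, glmQLFit with robust estimation, glmQLFTest). Standard errors are the log2 fold change over the square root of F. Each line was fitted alone, and the interaction and the comparison of vehicle groups came from 1 fit of 12 libraries. The study used DESeq2, run here as version 1.42.0 as an alternative. The fits were tested on simulated data with 200 genes shifted by 1.5 on the log2 scale. Of these, 99.5% were called in CAL27, 97.0% in HSC3, 94.0% in the interaction and 100.0% in the vehicle comparison. Unchanged genes made up 3.40%, 6.28%, 3.09% and 6.54% of the calls. Only genes above a minimum mean count were shifted, all genes had the same spread, and several counts per molecule were not simulated. These rates therefore do not cover low counts, such as those of CFB and CFI in HSC3 cells. Counts per molecule were estimated from genes with an expected count of 8 to 16, and on simulated libraries with 3, 6, 9 and 15 the estimates were 4.24, 7.80, 10.6 and 19.0, so they run high. Of 39368 symbols, 38934 matched GENCODE v44.

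The members and gene lists were chosen with earlier results of these data known. Named genes are the 8 members, MUC1, listed complement genes with a mean of at least 1 CPM that changed over 2-fold, and the 3 nearest to C3, by log2(CPM + 0.1), of which 1 is not reported here. Alternatives covered normalization, the filter, DESeq2, division by counts per molecule, 1 fit of all libraries, vehicle libraries alone, a replicate block and leaving out each library.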

Additional observations from a re-analysis of the deposited data

Results flagged for a closer look

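In the interaction test of edgeR, a negative value is a lower log2 fold change in HSC3 than in CAL27 cells. Of 20694 genes, 12.3% passed with a negative and 8.25% with a positive value. Among the genes named above, 8 differed in their DOX response between the lines. The values were -0.93 for C1R (edgeR adjusted p = 0.0096), -0.77 for C1S (edgeR adjusted p = 0.0017), 1.43 for C3 (edgeR adjusted p = 2.3e-05) and -0.79 for CD55 (edgeR adjusted p = 2.4e-05). They were 1.36 for MUC1 (edgeR adjusted p = 0.0010), -1.15 for C5 (edgeR adjusted p = 4.4e-04), -0.91 for CLU (edgeR adjusted p = 2.4e-05) and 1.33 for SUSD4 (edgeR adjusted p = 0.0041). For C1R, C1S, C5 and CLU the fall was larger in HSC3 cells, and for C3, MUC1 and SUSD4 it was larger in CAL27 cells. C5 and CLU were named for a change over 2-fold in HSC3 cells only, and SUSD4 for such a change in CAL27 cells only. This choice favours a difference in the direction seen, so for these genes the interaction is no independent result. With counts divided by counts per molecule, the edgeR adjusted p of MUC1 was 0.097.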

How the results depend on the processing

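Of 96 values for the members under alternatives in CAL27 cells, 92 kept their direction and their side of the threshold and 4 lost the call, 3 of them of CD59. Of 90 in HSC3 cells 87 did so, as did 131 of 136 for the interaction and 140 of 144 for the vehicle comparison. The log2 fold change of CFB in HSC3 cells turned to 0.20 without vehicle replicate 1 and to 0.38 without DOX replicate 2, and that of C3 to 0.069 without DOX replicate 1, within ranges over left-out libraries of -0.86 to 0.38 for CFB and -0.19 to 0.069 for C3, and the cause was not tested. In 1 fit over 12 libraries, 1 member was higher in CAL27 cells, and 2337 of all genes were lower and 2746 higher. Under DESeq2, 2 members had a higher response in HSC3 cells by the interaction, CFI being the second, for which no fold is meaningful because HSC3 vehicle libraries were at 0. When each library was left out in turn, the members higher with DOX numbered 1 to 2 in CAL27 cells, all genes higher in HSC3 cells 1514 to 3268, lowest without vehicle replicate 2, and for the interaction the members with a higher value 1 to 3 and all genes with a higher value 1336 to 2614, highest without HSC3 DOX replicate 1. CD46 also passed the vehicle comparison without that library (-0.14, edgeR adjusted p = 0.012) and with counts per molecule (-0.17, edgeR adjusted p = 0.031). With the replicate number as a block, 3 members were lower and 2 higher in HSC3 cells, as without it, and 2523 and 1955 of all genes. Same-numbered HSC3 libraries had deviations that correlated at -0.12, 0.098 and -0.13, within the range of -0.17 to 0.22 for differently numbered ones. With so few libraries this cannot show whether same-numbered cultures were handled together. No block could be fitted for CAL27 cells, whose DOX columns carry no replicate number. The low counts of CFB and CFI in HSC3 cells limit what could be seen there.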

Other observations

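Within libraries, the ratio of CD55 to CD46 counts, chosen after their values were seen, was 0.0951 to 0.112 with vehicle and 0.321 to 0.349 with DOX in the CAL27 line. The HSC3 ratio was 0.338 to 0.342 with vehicle and 0.683 to 0.808 with DOX. The groups did not overlap in either line, and CAL27 cells with DOX were near HSC3 cells with vehicle.

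The ratio of SERPING1 counts to the summed counts of C1R and C1S, also chosen after the values were seen, was 0.146 to 0.174 with vehicle and 0.0676 to 0.0996 with DOX in the CAL27 line. It was 0.0670 to 0.0957 with vehicle and 0 to 0.0457 with DOX in HSC3 cells, where SERPING1 counts were low.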
